A study of Mus musculus with 100 samples.

Results

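The aggrecanases and their close relatives among the ADAMTS proteases were followed in mouse knee joints before and after rupture of the anterior cruciate ligament. The 10 genes were taken by name from the 17310 genes of the count table: Adamts1, Adamts4, Adamts5, Adamts7, Adamts8, Adamts9, Adamts12, Adamts15, Adamts16 and Adamts17. All 10 were in the table, and all 10 passed the filter on low counts, which removed no gene.

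RNA of whole joints with small traces of soft tissue was sequenced in 100 libraries from 3 inbred strains, all mice being 10 weeks old at injury. The labels call STR/ort highly susceptible, C57BL/6 moderately susceptible and MRL/MpJ not susceptible to osteoarthritis after joint trauma; STR/ort mice are also known to develop osteoarthritis without injury. Right knees were loaded in compression with 10 to 12 N until the ligament ruptured, and the contralateral knee served as the uninjured joint. Each strain had 4 uninjured 0-day libraries, and then, for each of the times 1-day, 1-week and 2-weeks, 5 injured and 5 uninjured libraries, except that the 1-week uninjured groups of MRL/MpJ and STR/ort held 4. From 1-day on the uninjured joints are thus contralateral controls of injured mice, and the 0-day joints are the ones taken without any injury. The 2-weeks libraries formed a batch of their own in the labels, so no test set them against earlier times, and a range over all groups spans both batches.

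ADAMTS proteases are secreted zinc metalloproteases that carry thrombospondin repeats and cut proteins of the extracellular matrix. Adamts4 and Adamts5 encode aggrecanase-1 and aggrecanase-2, which cleave aggrecan, the proteoglycan that gives cartilage its resistance to compression; in mice, loss of Adamts5 activity protects cartilage in surgical models of osteoarthritis. Their propeptides are removed by furin-type convertases, and tissue inhibitors of metalloproteases, above all Timp3, hold the active enzymes in check.

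By position (GRCm38.p6 annotation), the 10 genes formed 2 neighbouring pairs and 6 single genes. Adamts1 (chromosome 16, 85793827 to 85803113, minus strand) and Adamts5 (chromosome 16, 85858157 to 85901125, minus strand) lay 55043 bases apart. Adamts15 (chromosome 9, 30899155 to 30922452, minus strand) and Adamts8 (chromosome 9, 30942562 to 30963838, plus strand) lay head to head with 20109 bases between them. The others were Adamts4 (chromosome 1, 171250129 to 171262267, plus strand), Adamts9 (chromosome 6, 92772699 to 92944450, minus strand), Adamts12 (chromosome 15, 11064773 to 11349232, plus strand), Adamts7 (chromosome 9, 90162904 to 90200102, plus strand), Adamts16 (chromosome 13, 70727798 to 70841845, minus strand) and Adamts17 (chromosome 7, 66839699 to 67153171, plus strand). Exons of 3 members overlap a gene on the other strand, Adamts7 by 122 bases, Adamts8 by 489 bases and Adamts9 by 166 and 424 bases; whether the counting used strand is not given in the sources used here, so reads there cannot be assigned to either gene.

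The promoters of 2 members are shown, whose calls overlapped in time. Adamts1 rose at 1-day in all 3 strains and at 1-week in STR/ort. Adamts12 rose at 1-day in C57BL/6 and at 1-week in all 3 strains. RefSeq promoter sequence (GRCm38.p6) was at hand for 4 of the 10 members. Each line gives the 250 bases before the annotated start, 5′ to 3′ on the gene's strand, at chr16:85803114-85803363 (minus strand) for Adamts1 and chr15:11064523-11064772 (plus strand) for Adamts12, with matches to the motifs searched in capitals.
Adamts1: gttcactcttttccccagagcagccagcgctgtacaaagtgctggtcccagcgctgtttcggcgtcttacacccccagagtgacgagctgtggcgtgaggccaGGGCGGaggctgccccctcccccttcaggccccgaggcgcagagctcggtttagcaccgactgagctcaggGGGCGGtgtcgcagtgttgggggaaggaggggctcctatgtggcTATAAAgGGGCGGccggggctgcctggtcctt
Adamts12: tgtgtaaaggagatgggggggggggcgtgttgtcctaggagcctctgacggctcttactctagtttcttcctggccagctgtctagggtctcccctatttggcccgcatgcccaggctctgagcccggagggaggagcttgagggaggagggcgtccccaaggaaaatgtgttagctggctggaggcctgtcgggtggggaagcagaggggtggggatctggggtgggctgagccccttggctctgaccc
The Adamts1 window held 1 TATA box (TATAAA), with its first base 32 bases before the start, and 3 GC boxes (GGGCGG) at 147, 76 and 25 bases before it. The Adamts12 window held none of the 6 motifs searched on both strands, which were those 2, the AP-1 site TGANTCA, the cAMP response element TGACGTCA, an NF-kB site and the RUNX site TGTGGT. Over 32851 RefSeq promoters of the same length, 12.4% held TATAAA, 32.7% GGGCGG, 6.75% TGANTCA, 1.55% TGACGTCA, 1.41% the NF-kB site and 14.0% TGTGGT. Of the windows not shown, that of Adamts9 held 1 GC box and that of Adamts17 none of the 6 motifs. A match is a match of letters only.

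Levels are given as CPM, the counts of a gene relative to its library's total, scaled by TMM factors. The libraries held 6182016 to 20986027 counts each (median 10582592), and no member was at 0 in any of them, the lowest being 2 counts of Adamts16. Differences are log2 fold changes from edgeR's quasi-likelihood test. A gene was called where the Benjamini-Hochberg adjusted p over all 17310 genes was under 0.05 and the fold above 1.5, and "rose" and "fell" are kept for called genes. Nothing in the sources says that replicates were separate mice except at 2-weeks, so the p-values elsewhere measure the spread between libraries. In whole-joint RNA, fewer cells of a type and less RNA per cell cannot be told apart.

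The cartilage, synovial fibroblast and skeletal muscle marker lists had no gene at 0 in any group, so joint tissue and adhering muscle were both in the libraries. Skeletal muscle transcripts were abundant and uneven: the summed CPM of its 6 markers was 54394 to 79923 in MRL/MpJ and 24505 to 47926 in STR/ort 1-week uninjured joints, and 12211 to 26807 in STR/ort 1-week injured joints. The 6 synovial fibroblast markers summed to 6589 to 19353 CPM in STR/ort, 1179 to 1655 in C57BL/6 and 1599 to 1689.7 in MRL/MpJ uninjured joints at 1-week. The sum weighs markers by abundance, and they did not move alike with injury. Pdpn was called higher in 9 of 9 injury comparisons, Prg4 and Thy1 in 7, Pdgfra in 2 and Cdh11 in 0, while Clic5 was lower in 4. STR/ort 1-week uninjured replicate 2 stood apart in that list, at 19353 CPM against 9554, 6589 and 9656 in the other 3 libraries. The part of these differences in the members' values was not tested.

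**Figure D1:**
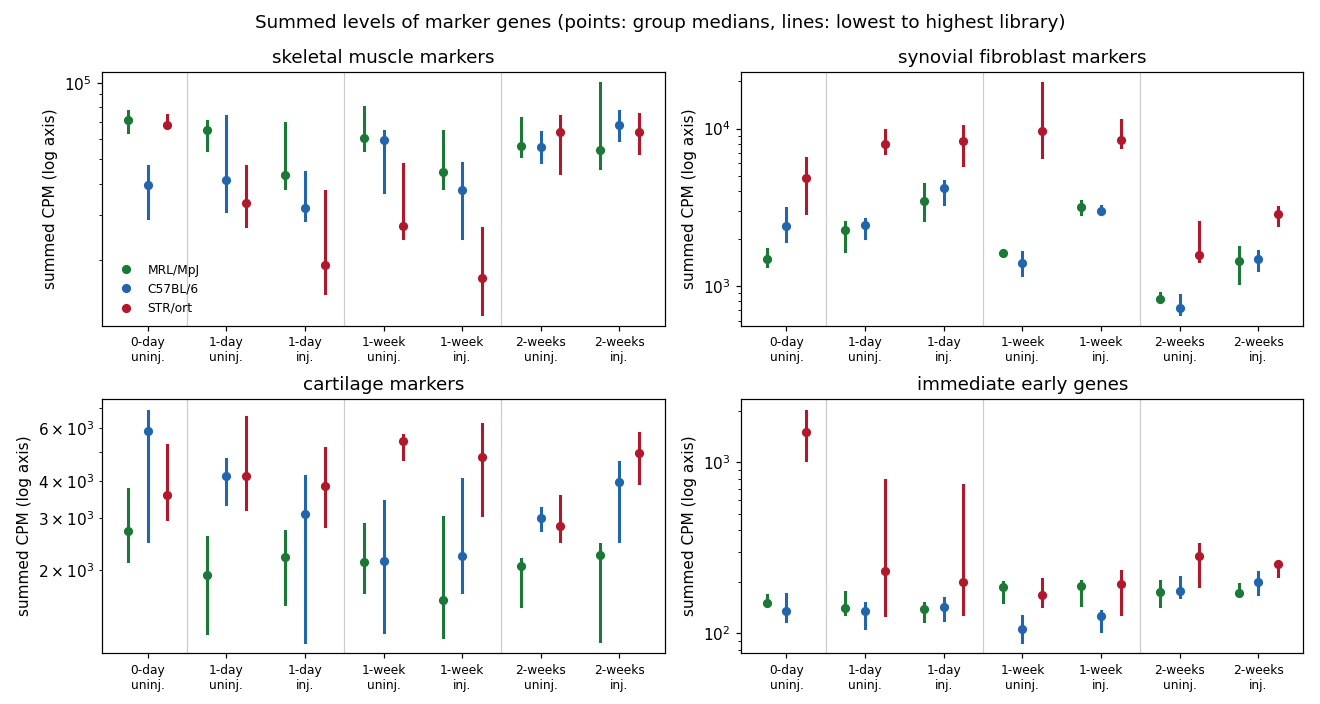
Summed CPM (log axis) of the marker lists for skeletal muscle, synovial fibroblast and cartilage and of the immediate early genes, by strain (colour), time and joint; points are group medians and lines run from the lowest to the highest library. Skeletal muscle sums were lower in STR/ort than in MRL/MpJ joints at 1-week, and the immediate early gene sum stood high in STR/ort 0-day joints, at 1028 to 2000.2 CPM.

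Counted over the 3 strains and 3 times, the 10 members gave 36 calls in 90 injury comparisons, 34 of them higher in injured joints and 2 lower; of the calls of all genes in these comparisons 75% were higher. Adamts4 rose in 7 of 9 comparisons, while Adamts5 and Adamts9 were not called in any. At 1-day, 3 members were called in MRL/MpJ (Adamts1, Adamts4 and Adamts8) where 2.02% of all genes were called, 3 in C57BL/6 (Adamts1, Adamts4 and Adamts12) against 5.6%, and 3 in STR/ort (Adamts1 and Adamts4 higher, Adamts16 lower) against 4.31%. At 1-week, 4 members were called in MRL/MpJ (Adamts4, Adamts12, Adamts15 and Adamts16) against 3.13% of all genes, 5 in C57BL/6 (those 4 and Adamts7) against 5.82% and 7 in STR/ort (those 5 and Adamts1 higher, Adamts8 lower) against 9.21%. At 2-weeks, 2 members were called in MRL/MpJ (Adamts15 and Adamts16) against 1.16%, 4 in C57BL/6 (those 2, Adamts12 and Adamts17) against 2.95% and 5 in STR/ort (Adamts4, Adamts7, Adamts12, Adamts15 and Adamts16) against 4.66%. The median log2 fold change of the members lay between 0.16 (STR/ort 1-day) and 0.74 (STR/ort 2-weeks), where that of all genes lay between -0.03 and 0.01.

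**Figure D2:**
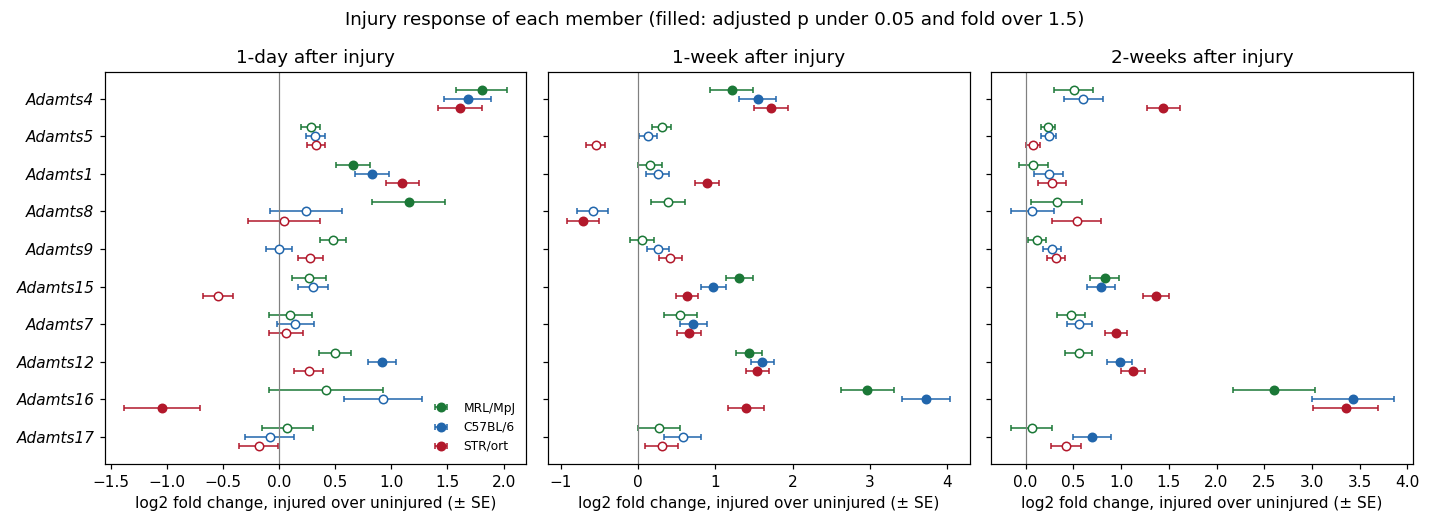
Log2 fold change of injured over uninjured joints for each member in 3 panels by time, coloured by strain, with lines of ± 1 standard error; filled points were called. Adamts4 lies to the right at 1-day in all 3 strains, and Adamts16 reaches 3.73 in C57BL/6 at 1-week.

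Adamts4, aggrecanase-1, rose in injured joints of all 3 strains at 1-day and was still called in all 3 at 1-week. In MRL/MpJ at 1-day its level was 6.81, 9.99, 7.21, 7.70 and 7.41 CPM in injured joints and 2.90, 1.52, 2.12, 2.11 and 2.62 CPM in uninjured joints (log2 fold change 1.81, standard error 0.23, adjusted p = 2.95e-06). In C57BL/6 it was 10.01, 5.44, 8.01, 15.6 and 7.15 CPM in injured and 3.14, 3.50, 2.53, 2.43 and 3.31 CPM in uninjured joints (log2 fold change 1.68, standard error 0.21, adjusted p = 7.03e-07), and in STR/ort 14.9, 13.2, 13.1, 10.6 and 13.8 against 5.58, 4.89, 3.36, 3.65 and 3.54 CPM (log2 fold change 1.61, standard error 0.20, adjusted p = 6.11e-07). Every injured library was above every uninjured one within each strain. The highest levels of Adamts4 came in STR/ort at 1-week, with 46.6, 36.6, 22.99, 16.9 and 24.3 CPM in injured joints and 11.1, 9.79, 6.58 and 8.22 CPM in uninjured joints (log2 fold change 1.72, standard error 0.22, adjusted p = 9.56e-07). Injured joints at 1-week held 6.27, 7.19, 7.28, 6.52 and 6.44 CPM in MRL/MpJ, where uninjured joints held 3.05, 2.80, 2.32 and 3.67 (log2 fold change 1.21, standard error 0.28, adjusted p = 0.0055). In C57BL/6 the 1-week values were 9.58, 7.03, 8.74, 7.34 and 11.5 against 1.62, 2.76, 4.03, 3.40 and 3.24 CPM (log2 fold change 1.55, standard error 0.24, adjusted p = 3.20e-05). Again no injured library overlapped the uninjured ones.

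By 2-weeks the call of Adamts4 remained in STR/ort alone, at 13.3, 10.1, 12.4, 16.1 and 22.1 CPM in injured and 3.99, 5.92, 3.82, 7.98 and 5.14 CPM in uninjured joints (log2 fold change 1.44, standard error 0.17, adjusted p = 2.53e-07). C57BL/6 held 5.33, 3.97, 6.45, 6.34 and 6.35 against 3.59, 3.60, 3.69, 3.86 and 3.97 CPM (log2 fold change 0.61, standard error 0.21, adjusted p = 0.0661); fitted with the mouse as a block, which the labels allow at 2-weeks, the adjusted p was 0.0391 and the gene was called, as it was by DESeq2 (0.0428), with housekeeping scaling (0.0447) and without injured replicate 2 (0.70, adjusted p = 0.031). MRL/MpJ held 5.12, 5.41, 4.21, 5.48 and 5.08 against 3.59, 3.85, 3.47, 2.76 and 4.11 CPM (log2 fold change 0.50, standard error 0.20, adjusted p = 0.407). Every MRL/MpJ injured library still lay above the uninjured ones, and the lowest C57BL/6 injured library was level with the highest uninjured one. The difference between the STR/ort and MRL/MpJ responses at 2-weeks was 0.94 on the log2 scale (standard error 0.27, adjusted p = 0.118), and between STR/ort and C57BL/6 0.83 (standard error 0.27, adjusted p = 0.571), so neither passed. Without STR/ort uninjured replicate 4 the former was 1.14, adjusted p = 0.0307 and called.

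Adamts5, aggrecanase-2, was the more abundant aggrecanase and moved less with injury than the 1.5-fold set for a call. Per transcript length its mean level over the groups was 6.30 RPKM against 1.52 RPKM for Adamts4. At 1-day it was 113, 119, 105, 117 and 128 CPM in STR/ort injured and 106, 90.5, 77.5, 82.01 and 99.5 CPM in uninjured joints, a log2 fold change of 0.33, with 0.28 in MRL/MpJ and 0.32 in C57BL/6. None reached a 1.5-fold change. edgeR called Adamts5 in 0 of the 9 injury comparisons, with 7 at an unadjusted p under 0.05 and 4 at an adjusted p under 0.05, and DESeq2 called 0.

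The sign of the Adamts5 difference was not shared by the strains at 1-week. STR/ort held 85.4, 85.5, 95.4, 83.05 and 86.4 CPM in injured joints and 112, 189, 108 and 101 CPM in uninjured joints (log2 fold change -0.55, standard error 0.12, adjusted p = 0.00159, a difference under 1.5-fold). All 4 uninjured libraries lay above all 5 injured ones, and replicate 2, the library with the high synovial fibroblast sum, lay far above the other 3. STR/ort 0-day joints held 79.02 to 96.5 CPM, near the 1-week injured joints and below every 1-week uninjured library. C57BL/6 at 1-week had means of 60.3 CPM in injured and 56.2 CPM in uninjured joints. In MRL/MpJ the levels were 72.3, 62.2, 64.1, 57.8 and 60.1 CPM in injured and 51.1, 48.1, 55.2 and 55.02 CPM in uninjured joints, with every injured library the higher. Tested directly, the response of STR/ort minus that of MRL/MpJ was called (difference -0.85 on the log2 scale, standard error 0.18, adjusted p = 0.0114), and without STR/ort uninjured replicate 2 it was -0.61, adjusted p = 0.0139. With that library left out the STR/ort difference itself was -0.30, adjusted p = 0.0187. Without uninjured replicate 1, 3 or 4 or injured replicate 3 it passed the 1.5-fold limit and was called (log2 fold change -0.60, -0.62, -0.64 and -0.58).

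**Figure D3:**
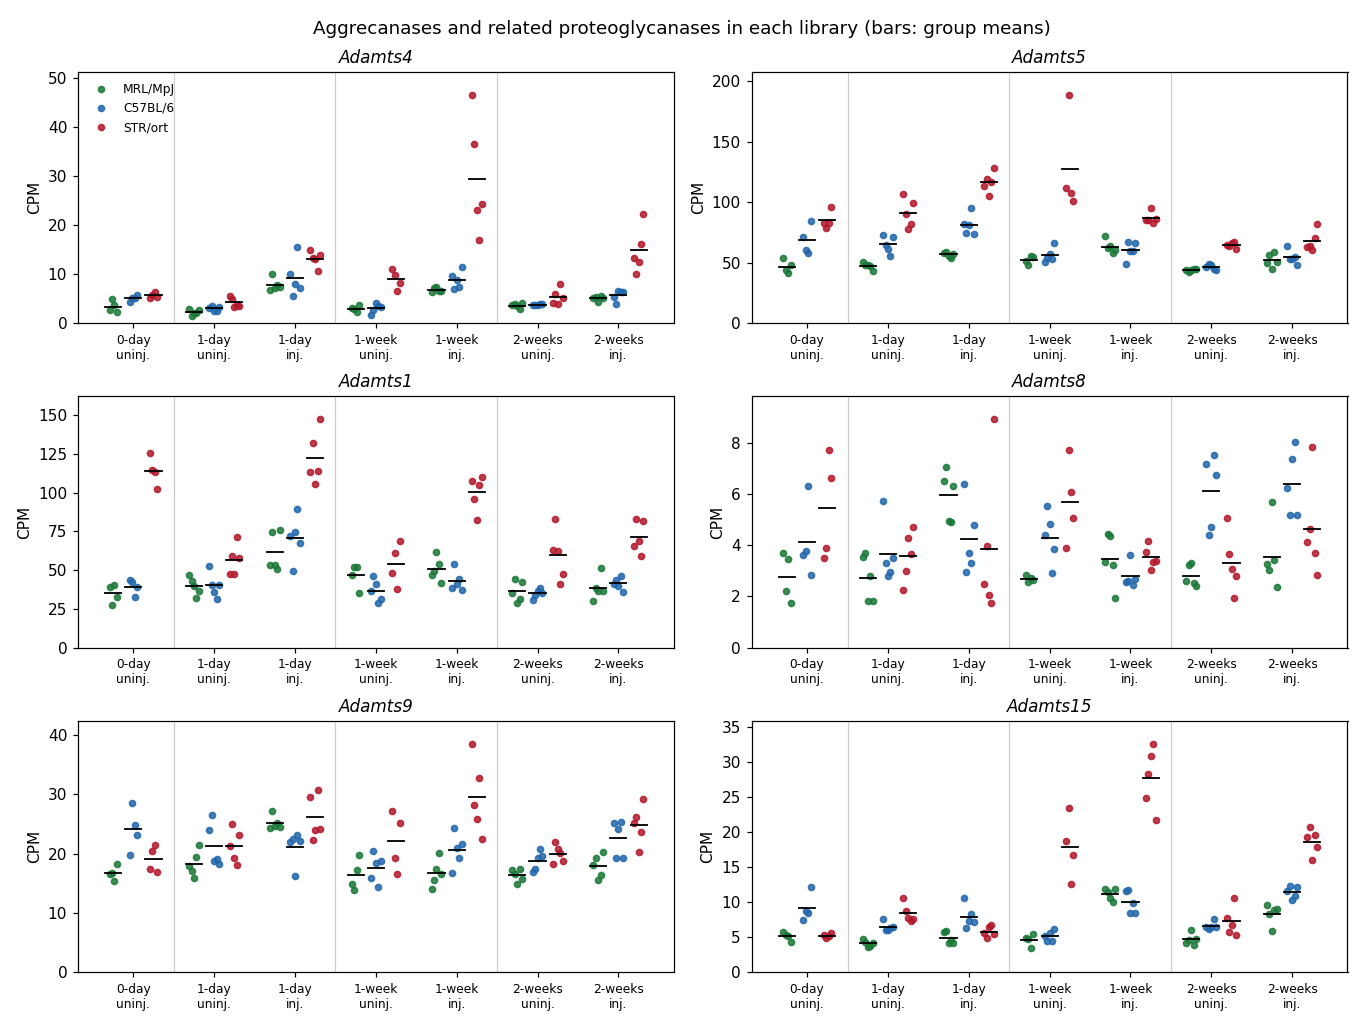
CPM of Adamts4, Adamts5, Adamts1, Adamts8, Adamts9 and Adamts15 in each library (points), by time and joint, coloured by strain; black bars are group means and each panel has its own CPM axis from 0. The STR/ort 1-week injured points of Adamts4 run from 16.9 to 46.6 CPM, with the highest mean of any group, and 1 STR/ort 1-week uninjured point of Adamts5 stands at 189 CPM.

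Adamts1, a protease of versican and aggrecan that is also induced by inflammatory and hormonal signals, was the most abundant member per length (11.6 RPKM over the groups). It rose at 1-day in all 3 strains. STR/ort held 114, 132, 106, 114 and 147 CPM in injured joints and 47.4, 58.9, 47.3, 71.5 and 57.8 CPM in uninjured joints (log2 fold change 1.10, standard error 0.15, adjusted p = 3.78e-06). C57BL/6 held 72.05, 49.7, 74.5, 89.6 and 67.6 against 52.8, 40.5, 35.9, 31.04 and 40.7 CPM (log2 fold change 0.83, standard error 0.15, adjusted p = 1.80e-04). The STR/ort groups were fully apart, and in C57BL/6 the lowest injured library fell inside the uninjured range. MRL/MpJ held 53.1, 74.7, 53.3, 51.02 and 76.1 against 47.1, 43.2, 39.6, 31.8 and 36.3 CPM (log2 fold change 0.66, standard error 0.15, adjusted p = 0.00752), with no overlap. That last call was lost, at a fold of 1.48, 1.48 and 1.49, without MRL/MpJ injured replicate 2, injured replicate 5 or uninjured replicate 4.

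At 1-week Adamts1 was called in STR/ort, at 108, 95.7, 82.5, 105 and 110.04 CPM in injured and 48.4, 61.3, 37.7 and 68.8 CPM in uninjured joints (log2 fold change 0.89, standard error 0.15, adjusted p = 7.76e-05). No injured library came down to the uninjured levels there. The log2 fold changes were 0.16 in MRL/MpJ and 0.26 in C57BL/6, neither called. The tests of the difference gave 0.73 for STR/ort minus MRL/MpJ (adjusted p = 0.097) and 0.63 for STR/ort minus C57BL/6 (adjusted p = 0.185), not called. The former was called without MRL/MpJ injured replicate 3 (0.81, adjusted p = 0.0431) or STR/ort uninjured replicate 4 (0.87, adjusted p = 0.0425). At 2-weeks the log2 fold changes were 0.08, 0.24 and 0.28 in MRL/MpJ, C57BL/6 and STR/ort, with no call.

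Adamts15, a versican-cleaving protease, rose from 1-week on. At 1-day no strain had a call, and in STR/ort the level was 5.55, 4.85, 6.41, 6.73 and 5.41 CPM in injured joints and 10.5, 8.67, 7.75, 7.31 and 7.58 CPM in uninjured joints (log2 fold change -0.54, standard error 0.13, adjusted p = 0.00616). That difference was under 1.5-fold, with every injured library below every uninjured one; without injured replicate 4 (-0.60, adjusted p = 0.006) or scaled to housekeeping genes (-0.61) it was called. At 1-week all 3 strains rose: MRL/MpJ held 11.8, 11.5, 10.6, 10.01 and 11.8 against 4.86, 4.66, 3.43 and 5.40 CPM (log2 fold change 1.31, standard error 0.18, adjusted p = 5.62e-06). C57BL/6 held 11.6, 11.8, 8.45, 9.87 and 8.48 against 5.20, 4.46, 5.64, 4.37 and 6.19 CPM (log2 fold change 0.98, standard error 0.16, adjusted p = 5.01e-05). STR/ort held 24.8, 28.3, 30.8, 32.6 and 21.7 against 18.7, 23.5, 12.6 and 16.8 CPM (log2 fold change 0.64, standard error 0.14, adjusted p = 0.00157). The first 2 strains did not overlap, while the lowest STR/ort injured library lay below its highest uninjured one; the STR/ort call was lost without injured replicate 4 (fold 1.49) or uninjured replicate 3 (fold 1.41). At 2-weeks Adamts15 was called in all 3 strains, in STR/ort at 19.3, 20.7, 15.9, 19.5 and 17.8 against 7.75, 5.74, 6.76, 10.6 and 5.32 CPM (log2 fold change 1.36, standard error 0.14, adjusted p = 1.02e-08). The log2 fold changes in MRL/MpJ and C57BL/6 were 0.83 (adjusted p = 0.00131) and 0.79 (adjusted p = 3.30e-04).

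Adamts9, a versicanase and the mammalian relative of the worm protease GON-1, had group means from 16.3 CPM in MRL/MpJ 2-weeks uninjured to 29.6 CPM in STR/ort 1-week injured joints, groups of different batches. In MRL/MpJ at 1-day it was 24.3, 27.2, 24.7, 25.2 and 24.5 CPM in injured and 17.8, 17.02, 15.8, 19.3 and 21.4 CPM in uninjured joints (log2 fold change 0.48, standard error 0.12, adjusted p = 0.012). The groups did not overlap although the fold stayed under 1.5. edgeR called 0 of its 9 injury comparisons, with 5 at an unadjusted p under 0.05 and 3 at an adjusted p under 0.05, and DESeq2 called 0.

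Adamts8, a protease with reported anti-angiogenic activity, was scarce and its calls were fragile. It rose in MRL/MpJ at 1-day, from 3.55, 3.69, 1.81, 2.81 and 1.80 CPM in uninjured to 6.52, 7.07, 4.93, 4.92 and 6.31 CPM in injured joints (log2 fold change 1.16, standard error 0.32, adjusted p = 0.0344). No injured library overlapped the uninjured ones, yet the call was lost without injured replicate 1 (adjusted p = 0.0716), 2 (0.108) or 5 (0.0534), or uninjured replicate 3 (0.115), 4 (0.0648) or 5 (0.108). In STR/ort at 1-week it fell, from 3.89, 7.74, 6.08 and 5.07 CPM in uninjured to 3.72, 4.18, 3.03, 3.35 and 3.39 CPM in injured joints (log2 fold change -0.71, standard error 0.20, adjusted p = 0.0114). The 2 groups overlapped at their edges, and without uninjured replicate 2 the value was -0.55, adjusted p = 0.0668. C57BL/6 at 1-week held 4.39, 5.51, 4.83, 2.92 and 3.83 CPM in uninjured and 2.58, 2.58, 3.63, 2.45 and 2.67 CPM in injured joints (log2 fold change -0.59, standard error 0.20, adjusted p = 0.0539), not called, with injured replicate 3 above the lowest uninjured library. It was called lower by DESeq2 (-0.60, adjusted p = 0.0408), with filterByExpr (-0.59, adjusted p = 0.0490) and without injured replicate 3 (-0.69, adjusted p = 0.0332) or uninjured replicate 4 (-0.72, adjusted p = 0.0164).

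Adamts12 and Adamts7 cleave cartilage oligomeric matrix protein (COMP) and carry a mucin-like stretch that the aggrecanases lack. Adamts12 rose at 1-day in C57BL/6, with 21.3, 18.3, 17.6, 21.9 and 18.9 CPM in injured and 11.8, 11.7, 10.6, 9.27 and 8.92 CPM in uninjured joints (log2 fold change 0.92, standard error 0.12, adjusted p = 1.95e-06). All injured libraries were higher. The 1-day log2 fold changes were 0.50 in MRL/MpJ (adjusted p = 0.0406) and 0.27 in STR/ort (adjusted p = 0.223), neither called. At 1-week Adamts12 rose in all 3 strains. MRL/MpJ held 14.1, 14.9, 13.02, 14.3 and 10.9 against 5.20, 4.08, 5.74 and 5.20 CPM (log2 fold change 1.43, standard error 0.17, adjusted p = 8.87e-07), and C57BL/6 15.97, 21.4, 16.4, 16.97 and 20.5 against 6.70, 4.99, 6.44, 5.18 and 7.18 CPM (log2 fold change 1.61, standard error 0.15, adjusted p = 5.35e-09). STR/ort held 38.8, 31.7, 31.1, 27.4 and 25.3 CPM in injured joints, the highest mean of any group, against 12.7, 10.6, 6.82 and 12.5 CPM (log2 fold change 1.54, standard error 0.15, adjusted p = 1.21e-08). Within each strain the injured and uninjured libraries were fully apart. At 2-weeks Adamts12 was called in C57BL/6 (0.99, adjusted p = 6.16e-06) and STR/ort (1.13, adjusted p = 4.24e-08), and in MRL/MpJ its fold was under 1.5 (0.56, adjusted p = 0.0275), with a call without injured replicate 1 (0.63) or 3 (0.66) or uninjured replicate 4 (0.59), or with filterByExpr (0.59).

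Adamts7 was first called at 1-week. At 1-week C57BL/6 held 5.67, 6.94, 6.28, 5.29 and 7.75 CPM in injured and 3.46, 3.15, 3.94, 3.56 and 5.60 CPM in uninjured joints (log2 fold change 0.71, standard error 0.17, adjusted p = 0.00506). STR/ort held 19.97, 18.1, 13.8, 11.8 and 14.04 against 10.6, 11.6, 7.89 and 9.23 CPM (log2 fold change 0.66, standard error 0.16, adjusted p = 0.00319). A single C57BL/6 uninjured library reached the injured range, and the STR/ort groups were apart by a narrow gap. The STR/ort call was lost without injured replicate 1 (fold 1.47) or uninjured replicate 3 (fold 1.48). At 2-weeks STR/ort held 14.6, 14.2, 12.7, 14.04 and 16.2 against 6.92, 7.05, 6.33, 8.15 and 8.57 CPM (log2 fold change 0.95, standard error 0.12, adjusted p = 3.13e-07), with no overlap and a call, where MRL/MpJ and C57BL/6 had 0.48 (adjusted p = 0.115) and 0.56 (adjusted p = 0.00501) without one. The C57BL/6 difference was called without injured replicate 3 or 5 (0.63 and 0.59) or uninjured replicate 2 or 5 (0.59 and 0.65), or with housekeeping scaling (0.60).

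Adamts16, whose substrates are less well defined than those of the aggrecanases, had the widest range of any member, with group means from 0.496 CPM in MRL/MpJ 1-day uninjured to 14.9 CPM in STR/ort 1-week injured joints (ratio 30.1). It rose in all 3 strains at 1-week and 2-weeks. MRL/MpJ at 1-week held 6.82, 7.45, 5.57, 6.06 and 5.56 CPM in injured and 0.905, 0.699, 0.907 and 0.713 CPM in uninjured joints (log2 fold change 2.97, standard error 0.34, adjusted p = 4.60e-07). C57BL/6 held 8.24, 9.35, 6.48, 8.76 and 7.995 against 0.462, 0.525, 0.716, 0.891 and 0.393 CPM (log2 fold change 3.73, standard error 0.31, adjusted p = 9.86e-10). STR/ort held 18.5, 13.6, 16.8, 11.8 and 14.04 against 3.77, 11.1, 2.47 and 5.85 CPM (log2 fold change 1.40, standard error 0.23, adjusted p = 4.44e-05). The STR/ort joints were the highest of the 3 strains on both sides, and uninjured replicate 2 nearly reached the injured range; without it the log2 fold change was 1.91, adjusted p = 7.17e-08.

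In the 2-weeks libraries Adamts16 was 6.19, 3.12, 0.859, 5.48 and 4.76 CPM in MRL/MpJ injured and 0.678, 0.405, 0.445, 0.921 and 0.855 CPM in uninjured joints (log2 fold change 2.60, standard error 0.43, adjusted p = 4.03e-04). Injured replicate 3 was inside the uninjured range there, and without it the log2 fold change was 2.85, adjusted p = 2.83e-06. C57BL/6 held 6.80, 7.61, 4.99, 6.83 and 6.64 against 0.336, 0.930, 0.473, 0.551 and 0.738 CPM (log2 fold change 3.43, standard error 0.43, adjusted p = 2.27e-06). STR/ort held 13.5, 12.02, 7.37, 14.3 and 15.6 against 1.41, 0.846, 0.546, 2.77 and 0.361 CPM (log2 fold change 3.35, standard error 0.34, adjusted p = 1.66e-08). Both of these strains had injured libraries well above all uninjured ones, and without STR/ort uninjured replicate 4 its log2 fold change was 4.02, adjusted p = 5.14e-09.

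At 1-day Adamts16 was called lower in STR/ort injured joints, at 1.62, 0.771, 0.414, 0.877 and 2.25 CPM against 0.678, 4.19, 3.18, 2.47 and 1.65 CPM (log2 fold change -1.04, standard error 0.34, adjusted p = 0.0466). The 2 groups overlapped broadly, with uninjured replicate 1 below 4 of the injured libraries. The call was lost without injured replicate 2, 3 or 4 (adjusted p = 0.111, 0.157 and 0.122) or uninjured replicate 2, 3 or 4 (adjusted p = 0.181, 0.122 and 0.0861). C57BL/6 at 1-day held 2.33, 2.72, 1.31, 2.70 and 2.17 CPM of Adamts16 in injured and 1.23, 1.38, 1.17, 0.945 and 1.36 CPM in uninjured joints (log2 fold change 0.93, standard error 0.34, adjusted p = 0.0574), not called, with injured replicate 3 alone inside the uninjured range. It was called higher with filterByExpr (0.93, adjusted p = 0.0498) and without injured replicate 3 (1.07, adjusted p = 0.0326).

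Adamts17, loss of which causes a connective tissue disorder with short stature and lens defects, was called after injury in 1 comparison. C57BL/6 at 2-weeks held 3.11, 2.54, 1.87, 2.68 and 3.75 CPM in injured and 1.91, 1.86, 1.61, 1.93 and 1.38 CPM in uninjured joints (log2 fold change 0.70, standard error 0.20, adjusted p = 0.0228). A single injured library dipped into the uninjured range. Without injured replicate 1 or 5 or uninjured replicate 3 or 5 the adjusted p was 0.0675, 0.0752, 0.0525 and 0.0725, and the call was lost.

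**Figure D4:**
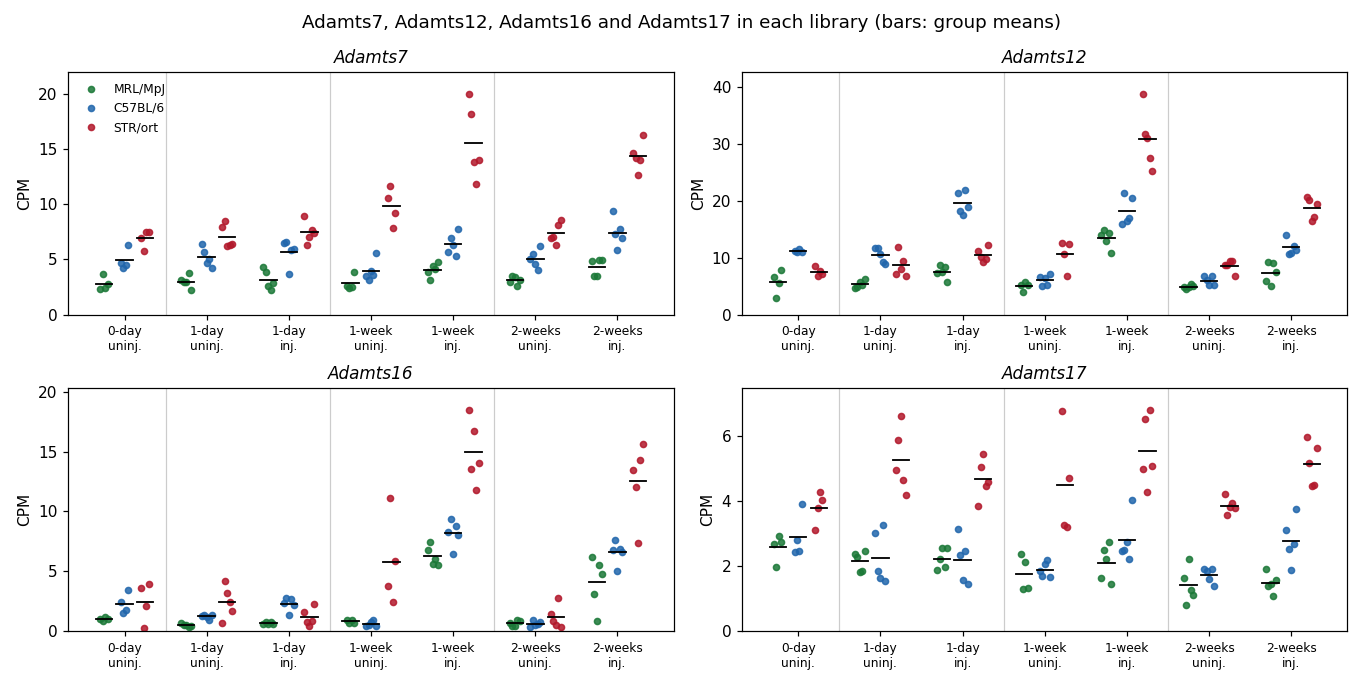
CPM of Adamts7, Adamts12, Adamts16 and Adamts17 in each library (points), by time and joint, coloured by strain; black bars are group means and each panel has its own CPM axis from 0. STR/ort 1-week injured joints hold the highest group means of Adamts12 (25.3 to 38.8 CPM) and Adamts16 (11.8 to 18.5 CPM), and the STR/ort points of Adamts17 lie above those of the other strains in most groups.

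The strains also differed without injury. In the 0-day joints 5 members were higher in STR/ort than in MRL/MpJ (Adamts1, Adamts4, Adamts5, Adamts7 and Adamts8), where 14.8% of all genes were called, 8.34% higher. Adamts1 was the widest difference, at 126, 115, 113 and 103 CPM in STR/ort, 39.1, 27.2, 40.6 and 32.8 CPM in MRL/MpJ and 43.5, 42.6, 32.5 and 38.9 CPM in C57BL/6, so that every STR/ort library was far above both other strains (STR/ort over MRL/MpJ log2 fold change 1.71, standard error 0.12, adjusted p = 2.49e-09). Adamts5 stood at 82.5, 79.02, 82.6 and 96.5 CPM in STR/ort and 53.5, 43.9, 41.3 and 48.3 CPM in MRL/MpJ (log2 fold change 0.86, standard error 0.11, adjusted p = 9.27e-06), with no overlap, and Adamts7 at 6.99, 5.81, 7.52 and 7.49 against 2.30, 3.72, 2.41 and 2.76 CPM (log2 fold change 1.31, standard error 0.19, adjusted p = 3.81e-05). In C57BL/6 against MRL/MpJ 4 members were higher (Adamts4, Adamts7, Adamts12 and Adamts15), with 15.9% of all genes called, 9.64% higher. In STR/ort against C57BL/6 Adamts1 was higher (log2 fold change 1.49), and Adamts15 (-0.86) and Adamts12 (-0.60) were lower, with 13.8% called, 7.82% higher and 5.99% lower. All of these comparisons share strain groups and are not independent. The synovial fibroblast sum at 0-day was 2897 to 6540.3 CPM in STR/ort, 1928 to 3123 in C57BL/6 and 1330 to 1717 in MRL/MpJ. The skeletal muscle sum was 66717 to 74440.2 CPM in STR/ort, 29170 to 46894 in C57BL/6 and 63715.5 to 77359 in MRL/MpJ. Their part in the 0-day differences was not tested.

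Some 0-day calls rested on single libraries, and others arose with 1 library left out. In C57BL/6 over MRL/MpJ those that arose were Adamts5 (0.60 to 0.67) and Adamts9 (0.59 to 0.66). Adamts7 arose in STR/ort over C57BL/6 (0.60), and Adamts17 (0.66) and Adamts16, given below, in STR/ort over MRL/MpJ. Adamts4 in STR/ort over MRL/MpJ was 0.73 (adjusted p = 0.0112) and 0.59, adjusted p = 0.0528 without MRL/MpJ replicate 1. Adamts8 in the same comparison lost its call without MRL/MpJ replicate 2 or 4 (adjusted p = 0.0812 and 0.0754) or STR/ort replicate 3 or 4 (0.104 and 0.0668). Adamts4 in C57BL/6 over MRL/MpJ lost it without MRL/MpJ replicate 1 or 4 (adjusted p = 0.113 and 0.084) or C57BL/6 replicate 2 or 4 (0.0555 and 0.0709), and Adamts12 in STR/ort over C57BL/6 without STR/ort replicate 2 or 4 (fold 1.47 and 1.49 in the lower direction) and with RLE factors or DESeq2 (-0.56 on the log2 scale in both). Under RUVg with 2 factors Adamts12 (-0.46, adjusted p = 0.336) and Adamts15 (-0.65, adjusted p = 0.136) were not called in STR/ort over C57BL/6, nor was Adamts15 in C57BL/6 over MRL/MpJ (0.70, adjusted p = 0.0713). Adamts16 in STR/ort was 3.59, 0.237, 2.09 and 3.93 CPM, its replicate 2 far below the rest, against 0.998, 0.814, 1.21 and 1.03 CPM in MRL/MpJ (log2 fold change 1.31, standard error 0.51, adjusted p = 0.0549); without that library it was called (1.67, adjusted p = 0.00132).

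The high Adamts1 of STR/ort 0-day joints stood beside a high immediate early gene sum, which was 2000.2, 1886, 1119 and 1028 CPM in those libraries against 145 to 168 CPM in MRL/MpJ and 118 to 171 CPM in C57BL/6. STR/ort 1-day injured joints held 106 to 147 CPM of Adamts1 with a sum of 130.3 to 738 CPM. The part of the sum in the Adamts1 level was not tested. Uninjured STR/ort joints at later times held less Adamts1, 47.4, 58.9, 47.3, 71.5 and 57.8 CPM at 1-day and 48.4, 61.3, 37.7 and 68.8 CPM at 1-week, and it fell against 0-day at both (log2 fold change -1.01, standard error 0.15, adjusted p = 8.55e-07 at 1-day, and log2 fold change -1.10, standard error 0.17, adjusted p = 3.79e-07 at 1-week). Under RUVg with 2 factors the 1-day change was -0.63 on the log2 scale (adjusted p = 0.0920) and no longer called. The immediate early gene sum of those later libraries was 128 to 784 and 144 to 209 CPM. In MRL/MpJ and C57BL/6 uninjured joints Adamts1 was not called in the same comparison, with log2 fold changes of 0.42 and -0.14 at 1-week.

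The group means of the strains were ordered alike at most times and joints. STR/ort had the highest group mean of the 3 strains in 58 of 70 combinations of member, time and joint, and MRL/MpJ the lowest in 59 of 70, where over all genes the shares were 36.6% and 34.7%. The 70 combinations are not independent, since the members share libraries. STR/ort was highest in 7 of 7 settings for Adamts1, Adamts4, Adamts5, Adamts7 and Adamts17, and in 3 of 7 for Adamts8. Among injured joints 47 of 90 strain comparisons were called, 45 of them in the order STR/ort, C57BL/6, MRL/MpJ, and among uninjured joints 40 of 90, 39 of them in that order. Of the calls of all genes 53.3% and 57.2% were in that order, which are 9.1% and 8.67% of their tests.

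In injured joints at 1-day, 5 members were higher in STR/ort than in MRL/MpJ (20.3% of all genes called in either direction, 10.2% higher). Adamts1 and Adamts17 were higher and Adamts12 and Adamts16 lower in STR/ort than in C57BL/6 (12.4%, 4.89% higher and 7.48% lower). In C57BL/6 4 members were higher than in MRL/MpJ (16.3%, 10% higher). At 1-week the counts in the same order were 8 (29.5%), 7 (25.1%) and 1 (9.47%), all higher in the first strain named, with 15%, 13.3% and 4.78% of all genes higher. At 2-weeks they were 7 (18.9%), 7 (10.4%) and 4 (11.5%), with 11%, 5.4% and 7.31% of all genes higher. For Adamts4 in injured joints, the log2 fold change of STR/ort over MRL/MpJ was 0.75 at 1-day, 2.10 at 1-week and 1.55 at 2-weeks (adjusted p = 0.00122, 1.10e-09 and 1.01e-08). Its 1-day call ended with scaling to housekeeping genes (0.57, under 1.5-fold) and under RUVg with 2 factors (adjusted p = 0.0570). For Adamts17 in injured joints, the log2 fold change of STR/ort over C57BL/6 was 1.08, 0.96 and 0.88 at the 3 times (adjusted p = 1.35e-04, 3.13e-04 and 1.10e-04); under RUVg with 2 factors the 1-week value was 0.67 (adjusted p = 0.144) and not called. At 1-day, the lower Adamts16 of STR/ort against C57BL/6 (-0.97, adjusted p = 0.0336) lost its call without replicate 1, 2 or 4 of C57BL/6 (adjusted p = 0.0533, 0.0673 and 0.082) or replicate 2, 3 or 4 of STR/ort (adjusted p = 0.0755, 0.116 and 0.0847). The 1-week Adamts7 difference of C57BL/6 over MRL/MpJ was 0.63 (adjusted p = 0.00849) and lost its call without MRL/MpJ replicate 2 (fold 1.48) or C57BL/6 replicate 5 (fold 1.47). Calls against the strain order arose for Adamts8, lower in STR/ort, at 1-day without STR/ort replicate 5 (against MRL/MpJ -1.23, adjusted p = 2.24e-04, and against C57BL/6 -0.77, adjusted p = 0.0296) and at 2-weeks against C57BL/6 without STR/ort replicate 3 (-0.75, adjusted p = 0.0118). Calls in that order arose without 1 library for Adamts16 and Adamts4 at 1-day, Adamts5 and Adamts9 at 1-week, and Adamts8, in STR/ort over MRL/MpJ, and Adamts16 at 2-weeks. The synovial fibroblast sum of injured joints was 5877 to 10337 CPM in STR/ort and 2641 to 4464 CPM in MRL/MpJ at 1-day. It was 7657 to 11396 and 2857 to 3441 CPM at 1-week, and 2432 to 3166 and 1038 to 1761 CPM at 2-weeks. The skeletal muscle sum was 14784 to 37444 and 38309.5 to 69278 CPM at 1-day, 12211 to 26807 and 38524 to 64481 CPM at 1-week, and overlapped at 2-weeks. Their part in these differences was not tested.

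Uninjured joints showed much the same order. At 1-day 7 members were higher in STR/ort than in MRL/MpJ (22.6% of all genes called in either direction, 13.1% higher), 2 higher than in C57BL/6 (10.5%, 5.73% higher) and 4 higher in C57BL/6 than in MRL/MpJ (14.8%, 9% higher). At 1-week the counts were 8 (24.4%), 7 (22.2%) and 1 (8.53%), with 13.7%, 13.1% and 4.53% of all genes higher. At 2-weeks 6 were higher in STR/ort than in MRL/MpJ (13.8%, 7.97% higher). Adamts1 and Adamts17 were higher and Adamts8 lower in STR/ort than in C57BL/6 (9.78%, 4.92% higher and 4.86% lower). Adamts7 and Adamts8 were higher in C57BL/6 than in MRL/MpJ (9.83%, 6.01% higher). The widest difference was Adamts16 at 1-week, with 3.77, 11.1, 2.47 and 5.85 CPM in STR/ort, 0.905, 0.699, 0.907 and 0.713 CPM in MRL/MpJ and 0.462, 0.525, 0.716, 0.891 and 0.393 CPM in C57BL/6, the STR/ort libraries being the highest throughout (STR/ort over C57BL/6 log2 fold change 3.19, standard error 0.35, adjusted p = 1.49e-08). The synovial fibroblast and skeletal muscle sums differed between the strains in the same libraries, as given above, and their part in this difference was not tested.

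Of these 40 calls, 7 were lost when 1 library was left out, and calls in the strain order arose for Adamts1 at 1-day and 1-week and for Adamts4, Adamts7, Adamts12 and Adamts15 at 2-weeks. Adamts8 in C57BL/6 over MRL/MpJ at 1-week (0.66, adjusted p = 0.0374) was lost without any 1 of the 4 MRL/MpJ libraries (adjusted p = 0.0652, 0.0863, 0.0713 and 0.0776 for replicates 1 to 4) or C57BL/6 replicates 1 (0.0608), 2 (0.0955) or 3 (0.0884). Adamts16 at 1-day lost its call in STR/ort over C57BL/6 without C57BL/6 replicate 4 (adjusted p = 0.0741) or STR/ort replicate 2 (0.125) or 3 (0.0706), and in C57BL/6 over MRL/MpJ without MRL/MpJ replicate 4 (0.0569) or 5 (0.0527). In STR/ort over MRL/MpJ, Adamts12 at 1-day was lost without STR/ort replicate 2 (fold 1.499) and Adamts1 at 2-weeks without STR/ort replicate 2 (fold 1.47). At 2-weeks in the same comparison, Adamts4 was lost without MRL/MpJ replicate 4 (fold 1.44) or STR/ort replicate 4 (fold 1.33), and Adamts15 without MRL/MpJ replicate 4 (fold 1.47) or STR/ort replicate 4 (fold 1.35).

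Whether the strains responded differently to injury was tested by the interaction term, which called 5 of 90 differences, all lower in STR/ort than in the strain it was set against. Lower was also the direction of most genes called in these 3 comparisons, with 2.48% of all genes lower and 0.179% higher at 1-day against C57BL/6, 0.52% and 0.364% at 1-week against MRL/MpJ, and 0.352% and 0.139% at 1-week against C57BL/6. At 1-day against C57BL/6, where 2.66% of all genes were called, these were Adamts15 (difference -0.84 on the log2 scale, standard error 0.19, adjusted p = 0.0065), Adamts16 (difference -1.96 on the log2 scale, standard error 0.48, adjusted p = 0.014) and Adamts12 (difference -0.65 on the log2 scale, standard error 0.18, adjusted p = 0.031). The Adamts12 difference lost its call without C57BL/6 injured replicate 1 or 4 (adjusted p = 0.0604 and 0.0728), C57BL/6 uninjured replicate 4 or 5 (0.0706 and 0.0655), STR/ort injured replicate 2, 3 or 4 (0.0558, 0.0763 and 0.0699) or STR/ort uninjured replicate 2 or 4 (0.0899 and 0.0598). At 1-week the calls were Adamts5 in STR/ort against MRL/MpJ, given above, with 0.884% of all genes called, and Adamts16 in STR/ort against C57BL/6 (difference -2.33 on the log2 scale, standard error 0.41, adjusted p = 0.00455), with 0.491%. Without STR/ort uninjured replicate 2 the latter was -1.82, adjusted p = 0.00669. The uninjured level enters these differences as well as the injured one. Mean STR/ort levels at 0-day, in uninjured and in injured joints were 5.18, 8.37 and 5.79 CPM for Adamts15 at 1-day. For Adamts12 at 1-day they were 7.56, 8.68 and 10.5 CPM, and for Adamts16 2.46, 2.43 and 1.19 CPM. At 1-week they were 2.46, 5.80 and 14.9 CPM for Adamts16 and 85.1, 127 and 87.2 CPM for Adamts5. The part of the uninjured levels was not tested. Under RUVg with 1 or 2 factors neither the 1-day Adamts16 difference (adjusted p = 0.0717 and 0.0675) nor that of Adamts12 (0.104 and 0.0996) was called, and scaled to housekeeping genes Adamts12 was not called either (0.0642). Other 1-week differences were called with 1 library left out, besides that of Adamts1. Against MRL/MpJ they were Adamts8 without MRL/MpJ injured replicate 5 (-1.25, adjusted p = 0.0263) or STR/ort uninjured replicate 1 (-1.23, adjusted p = 0.0388), and Adamts15 (-0.82, adjusted p = 0.049) and Adamts16 (-1.86, adjusted p = 0.00497) without STR/ort uninjured replicate 3. Against C57BL/6 it was Adamts5 without C57BL/6 uninjured replicate 5 (-0.74, adjusted p = 0.0347) or STR/ort uninjured replicate 3 (-0.74, adjusted p = 0.0273) or 4 (-0.77, adjusted p = 0.0297). With all libraries, other settings called the same differences: Adamts8 against MRL/MpJ by DESeq2 (adjusted p = 0.0411) and RUVg with 1 or 2 factors (0.0490 and 0.0275), Adamts16 against MRL/MpJ by DESeq2 (0.0200) and RUVg with 2 factors (0.0255), and Adamts5 against C57BL/6 by DESeq2 (0.0313), RUVg with 2 factors (0.0445) and 1 fit of all libraries (0.00538). Adamts1 against MRL/MpJ was called with RUVg with 2 factors (0.0370) and 1 fit of all libraries (0.0426).

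No member was called in the other 6 interaction comparisons. edgeR had 0 calls in their 60 tests with 16 at an unadjusted p under 0.05, and DESeq2 made 0 calls. With 1 library left out, calls arose in 3 of these tests: Adamts8 in STR/ort against MRL/MpJ at 1-day without STR/ort injured replicate 5 (-1.67, adjusted p = 0.0224), and in the same strains at 2-weeks, without STR/ort uninjured replicate 4, Adamts4, given above, and Adamts15 (0.74, adjusted p = 0.0445). All genes together gave 0.162% and 0.318% at 1-day for STR/ort and C57BL/6 against MRL/MpJ, 0% at 1-week for C57BL/6 against MRL/MpJ, and 0.451%, 0.0462% and 0% at 2-weeks.

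Over time, injured joints at 1-week were set against injured joints at 1-day. STR/ort rose in 5 members, with 13.9% of all genes called and 9.02% higher, and these, with their log2 fold changes, were Adamts4 (1.15), Adamts7 (1.04), Adamts12 (1.54), Adamts15 (2.24) and Adamts16 (3.66). On the same log2 scale MRL/MpJ rose in Adamts12 (0.86), Adamts15 (1.21) and Adamts16 (3.28), with 3.11% called. Adamts9 was called lower in MRL/MpJ with RUVg with 2 factors (-0.59) and with 1 fit of all libraries (-0.59). The same call arose without 1-week injured replicate 3 (-0.59) or 4 (-0.64). Adamts8 was called lower in MRL/MpJ with RUVg with 1 factor (-0.85) and 2 factors (-0.76). C57BL/6 rose in Adamts16 (1.84) and fell in Adamts1 (-0.72), with 4.47%; scaled to housekeeping genes, the Adamts1 change was -0.57 and under 1.5-fold. Adamts16 thus rose in each strain, from 0.414 to 2.25 CPM to 11.8 to 18.5 CPM in STR/ort, with no overlap.

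Uninjured joints also moved away from the 0-day level, by strain. In C57BL/6 at 1-week 4 members fell, with 5.72% of all genes called, 4.84% lower and 0.884% higher, and these log2 fold changes: Adamts4 (-0.76), Adamts12 (-0.91), Adamts15 (-0.86) and Adamts16 (-1.89). The synovial fibroblast sum of those C57BL/6 joints was 1928 to 3123 CPM at 0-day and 1179 to 1655 CPM at 1-week, without overlap, and the cartilage sum 2511 to 6876 and 1241 to 3419 CPM; their part in these changes was not tested. In STR/ort at 1-week Adamts1 fell while Adamts4 (0.63), Adamts15 (1.76) and Adamts16 (1.17) rose, with 13.6% called, and at 1-day Adamts1 fell and Adamts15 rose (0.70), with 9.92%. Adamts15 in STR/ort uninjured joints went from 5.24, 4.86, 5.12 and 5.52 CPM at 0-day to 10.5, 8.67, 7.75, 7.31 and 7.58 at 1-day and 18.7, 23.5, 12.6 and 16.8 at 1-week, with no overlap among the 3 times. The 0-day STR/ort joints held a synovial fibroblast sum of 2897 to 6540.3 CPM, against 6589 to 19353 CPM at 1-week, and a skeletal muscle sum of 66717 to 74440.2 against 24505 to 47926 CPM. Without STR/ort 1-week uninjured replicate 2 the Adamts16 log2 fold change was 0.68, adjusted p = 0.14. Rises were added in STR/ort at 1-week for Adamts5 without 0-day replicate 4 (0.65) or 1-week replicate 1, 3 or 4 (0.62, 0.63 and 0.66). Adamts12 was added without 1-week replicate 3 (0.64, adjusted p = 0.0032). In C57BL/6 at 1-week RUVg with 2 factors also called Adamts17 lower (-0.68, adjusted p = 0.0471). The Adamts4 changes were lost in STR/ort without 0-day replicate 1, 2 or 4 (adjusted p = 0.0741, 0.0503 and 0.067) or 1-week replicate 1 or 2 (0.143 and 0.0722), and in C57BL/6 without 0-day replicate 2, 3 or 4 (0.0714, 0.0619 and 0.117) or 1-week replicate 1 or 2 (0.125 and 0.0778).

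In MRL/MpJ at both times and in C57BL/6 at 1-day no member was called in uninjured joints against 0-day, where 0.0924%, 0% and 0.0693% of all genes were called. edgeR made 0 calls in these 30 tests with 4 at an unadjusted p under 0.05, and DESeq2 made 0.

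The genes around the members in the pathway were counted over the same 9 injury comparisons. Over all genes, 3.24% of the tests in these comparisons were called higher and 1.08% lower. Of their substrates and link proteins (7 genes, 63 tests), 18 tests rose and 1 fell. Vcan, the large proteoglycan of provisional matrix and blood vessels, rose in 9 of 9, with log2 fold changes from 0.62 in MRL/MpJ at 2-weeks to 1.68 in MRL/MpJ at 1-week. Acan, the cartilage proteoglycan, rose in 4, none of them at 1-day, and in STR/ort at 1-week its log2 fold change was 0.98 (adjusted p = 3.14e-04). Comp rose in 5 and fell in STR/ort at 1-day (-0.60, adjusted p = 0.0387).

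Of the inhibitors, cofactor and clearance receptor (8 genes, 72 tests), 19 rose and 6 fell. Timp1 rose in 9 of 9, by 2.35 on the log2 scale in STR/ort at 1-day, while Timp4 fell in 5, with -1.97 in STR/ort at 1-day. Timp3, the inhibitor most specific for aggrecanases, had log2 fold changes between -0.41 and 0.20, all under 1.5-fold. Timp2, another metalloprotease inhibitor, rose in all 3 strains at 1-week and in C57BL/6 and STR/ort at 2-weeks, with log2 fold changes from 0.75 to 1.02, and A2m, a broad protease inhibitor, fell in C57BL/6 at 1-day (-0.60, adjusted p = 0.024). Lrp1, the endocytic receptor that clears Adamts4 and Adamts5, rose in 5.

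Of the 4 proprotein convertases (36 tests), 7 rose and 3 fell. Pcsk5 gave all 7 rises, with a log2 fold change of 1.77 in C57BL/6 at 1-day, and Pcsk6 the 3 falls, with -1.08 in STR/ort at 1-week. Of the 6 cytokines known to induce aggrecanases (54 tests), 8 rose and 1 fell. Il6 gave 5 of the rises, with a log2 fold change of 3.34 in STR/ort at 1-day, and Il1b rose in C57BL/6 and STR/ort at 1-day by 0.62 and 0.77. Tnf rose in STR/ort at 1-day (0.79, adjusted p = 0.00469) and Osm fell in STR/ort at 1-week (-0.68, adjusted p = 0.0295).

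Of the other 9 ADAMTS proteases (81 tests), 9 rose and 2 fell. Adamts6 rose in 4, Adamts3, a procollagen peptidase, in 3 and Adamts14, another procollagen peptidase, in 2. Adamts20 fell in MRL/MpJ at 1-day (-0.96, adjusted p = 0.00829), and Adamts19 fell in STR/ort at 1-day, from a mean of 0.529 CPM in uninjured to 0.0146 CPM in injured joints (adjusted p = 1.67e-04). Adamts19 lay near the floor of the counts there, and its log2 fold changes over the 9 comparisons ran from -4.29 to 3.38. Of the 7 ADAMTS-like proteins, which lack the protease domain (63 tests), 17 rose and 1 fell, with Adamtsl3 called in 7, Adamtsl1 in 6 and Adamtsl2 and Adamtsl4 in 2 each; the fall was that of Thsd4. Over the same comparisons the 6 synovial fibroblast markers gave 25 higher and 4 lower of 54 tests and the 6 skeletal muscle markers 1 higher and 11 lower of 54. The bone and the fat markers each gave 0 higher and 5 lower of 45, and the neutrophil markers 0 and 4 of 54. Smooth muscle and pericyte markers gave 4 and 0 of 54, endothelium 2 and 0 of 54, macrophage 1 and 1 of 45 and B cell 0 and 1 of 45. The 9 cartilage markers, Acan and Sox9 among them, gave 8 higher and 1 lower of 81. In STR/ort at 2-weeks the cartilage sum was 3942 to 5771 CPM in injured and 2512 to 3546 CPM in uninjured joints, without overlap; in C57BL/6 at 2-weeks it was 2519.8 to 4617 and 2727 to 3228 CPM, and in STR/ort at 1-week 3059.99 to 6226 and 4749 to 5681 CPM, both overlapping. The part of these markers in the members' values was not tested.

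The members' profiles over the 21 group means were also compared with each other and with all genes, as a description, the points sharing batch, strain and tissue makeup. Of the member pairs, Adamts15 and Adamts16 were most alike (Pearson's r = 0.913 of mean log2 CPM). Adamts4 was nearest to Tnfaip6 (r = 0.958), an inflammation-induced hyaluronan-binding protein, Adamts1 to Cxcl1 (r = 0.925), a neutrophil chemokine, and Adamts5 to Ccl9 (r = 0.939). Adamts12 was nearest to Lama4 (r = 0.975), a laminin chain of vessels, Adamts16 to Mfap2 (r = 0.949), a microfibril protein, and Adamts15 to Rhoj (r = 0.955). Adamts7 was nearest to 2700081O15Rik (r = 0.966), Adamts17 to Upp1 (r = 0.946) and Adamts9 to Wisp1 (r = 0.894). Adamts8 had no close neighbour, its nearest being Oasl1 (r = 0.653).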

How the data were processed

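Joints were sequenced as poly(A) TruSeq libraries. The authors mapped reads with TopHat2 (2.0.11) to mm10 and deposited whole-number counts per RefSeq gene from featureCounts, with no normalization; the strand setting is not given in the sources used here. Of 17313 table rows, 3 repeated rows were dropped. Genes with at least 2 counts in at least 5 libraries were kept, which removed none of the 17310. Totals per library ran from 6182016 to 20986027, so members at a few counts, down to 2 for Adamts16, carry a wide counting error.

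Differences were fitted with edgeR 4.0.16 (quasi-likelihood test, TMM factors, R 4.3.3), 1 fit for each time point, plus 1 fit of the 70 libraries of the first batch for the comparisons over time. The fits gave 48 comparisons, adjusted by Benjamini-Hochberg over all genes. The test was run on simulated data first. RPKM used annotated exon length.

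The members and lists were chosen with earlier results of these data known. Every member was named, with the called genes of the lists of other ADAMTS proteases, substrates, inhibitors and cytokines, and the gene nearest each member in profile; other lists were given mainly as counts. Alternatives were RLE factors, scaling to 25 housekeeping genes, RUVg with 1 or 2 factors, DESeq2 1.42.0, no filter, filterByExpr, 1 fit of all libraries, a replicate block and each library left out. Injured and uninjured libraries with the same number come from the same mouse in the labels at 2-weeks (15 pairs). At 1-day and 1-week they share only a number.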

Additional observations from a re-analysis of the deposited data

Results flagged for a closer look

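In 11 of 210 combinations of member and group, 1 library lay far from the rest of its group by Dixon's test, where chance alone gives about 1 in 20. STR/ort 1-week uninjured replicate 2 held 189 CPM of Adamts5 where the others held 101 to 112. In STR/ort 1-week injured joints replicate 3 held 95.4 CPM of Adamts5 against 83.0 to 86.4, and in MRL/MpJ 2-weeks uninjured joints replicate 2 held 41.9 CPM against 44.2 to 45.0. Adamts4 was 9.99 CPM in MRL/MpJ 1-day injured replicate 2 against 6.81 to 7.70. Adamts8 was 5.73 CPM in C57BL/6 1-day uninjured replicate 1 against 2.80 to 3.48, and 3.63 CPM in C57BL/6 1-week injured replicate 3 against 2.45 to 2.67.

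C57BL/6 1-day injured replicate 3 was low in 2 members, with Adamts9 at 16.2 CPM against 21.9 to 23.1 and Adamts7 at 3.68 CPM against 5.84 to 6.56. Adamts7 was 3.87 CPM in MRL/MpJ 1-week uninjured replicate 4 against 2.45 to 2.60. Adamts15 was 7.62 CPM in C57BL/6 2-weeks uninjured replicate 4 against 6.16 to 6.43. Adamts12 was 11.5 CPM in C57BL/6 0-day replicate 3, where the other 3 libraries all held 11.1.

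Injury responses that differed between strains by the interaction term, on the log2 scale, were those of Adamts15 (-0.84), Adamts12 (-0.65) and Adamts16 (-1.96) in STR/ort against C57BL/6 at 1-day. At 1-week they were Adamts5 in STR/ort against MRL/MpJ (-0.85) and Adamts16 in STR/ort against C57BL/6 (-2.33).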

How the results depend on the processing

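No call changed sign under any alternative. Over the settings other than left-out libraries, the calls among the members were 34 to 39 for injury (36 as reported), 9 to 16 at 0-day (12), 46 to 48 between injured strains (47), 38 to 44 between uninjured strains (40), 4 to 8 for the differences of response (5) and 18 to 21 over time (20). DESeq2 gave 8 differences of response. Leaving out the libraries singly, the counts ran from 34 to 37 for injury, 10 to 13 at 0-day, 46 to 49 between injured strains, 38 to 42 between uninjured strains, 4 to 8 for the differences of response and 18 to 22 over time; the 8 came without STR/ort 1-week uninjured replicate 3. Of the 0-day calls 10 were higher and 2 lower, and with RUVg with 2 factors 9 and 0. Of the differences of response 0 were higher and 5 lower; RUVg with 2 factors and 1 fit of all libraries each gave 1 higher and 6 lower, and the replicate block 2 higher and 5 lower.

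Fitted with the replicate block, 36 injury calls were made, 35 of them shared, and 7 differences of response, 3 of them shared. At 2-weeks, where numbers pair joints of 1 mouse, it added Adamts4 in C57BL/6. At 1-day and 1-week the samples share only a number; the block did not call the 1-day fall of Adamts16 in STR/ort (adjusted p = 0.128) or the 1-day differences of Adamts16 (0.0613) and Adamts12 (0.0783) between STR/ort and C57BL/6, and it called 1-week differences of Adamts1 (0.65, adjusted p = 0.0311) and Adamts8 (-1.21, 0.0176) between STR/ort and MRL/MpJ and of Adamts1 (0.61, 0.0313) and Adamts5 (-0.62, 0.0262) between STR/ort and C57BL/6. Deviations of same-numbered libraries correlated with a median r of 0.0846 at 1-day (6 of 15 pairs over 0.1), 0.0973 at 1-week (6 of 13; all 4 STR/ort pairs, from 0.102 to 0.231, where the block changed no injury call among the members) and 0.139 at 2-weeks.

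Over all genes, the share called moved by over 1.5 times in some comparisons. RUVg with 2 factors gave 6.25% for STR/ort over C57BL/6 at 0-day, 12.3% and 14.5% for STR/ort over MRL/MpJ in injured and uninjured joints at 1-day, 8.05% for STR/ort over C57BL/6 in injured joints at 1-day, 0.763% for injury in MRL/MpJ at 2-weeks, and 0.890% and 4.95% for STR/ort uninjured joints at 1-day and 1-week over 0-day. For the difference of response of STR/ort and MRL/MpJ at 1-week the share was 1.97% with the replicate block and 1.70% with 1 fit of all libraries, and for STR/ort and C57BL/6 1.68% and 1.17%; DESeq2 gave 1.16% for the latter. RUVg with 2 factors also ended the call of Adamts15 in STR/ort uninjured joints at 1-day over 0-day (0.80, adjusted p = 0.0564). Other calls ended by a setting, beyond those in the report, had these adjusted p values. With housekeeping scaling they were Adamts8 after injury in MRL/MpJ at 1-day (0.0575), Adamts4 in STR/ort uninjured joints at 1-week over 0-day (0.0628) and Adamts12 in STR/ort over C57BL/6 injured joints at 1-week (a log2 fold change of 0.57, under 1.5-fold). With RUVg with 1 factor and 2 factors they were Adamts4 in C57BL/6 over MRL/MpJ at 0-day (0.184 and 0.178), and Adamts16 at 1-day after injury in STR/ort (0.0845 and 0.0853) and in STR/ort over C57BL/6 injured joints (0.156 and 0.512). With 2 factors they were Adamts8 in STR/ort over MRL/MpJ at 0-day (0.102), Adamts17 in STR/ort over MRL/MpJ and over C57BL/6 uninjured joints at 1-week (0.0968 and 0.0916), Adamts4 in STR/ort over MRL/MpJ uninjured joints at 2-weeks (0.136) and in STR/ort uninjured joints at 1-week over 0-day (0.152), and Adamts7 in C57BL/6 over MRL/MpJ injured joints at 1-week (0.58 on the log2 scale, under 1.5-fold). With 1 fit of all libraries they were Adamts4 in C57BL/6 over MRL/MpJ (0.0997) and Adamts12 in STR/ort over C57BL/6 (-0.56 on the log2 scale, under 1.5-fold) at 0-day, Adamts16 at 1-day after injury in STR/ort (0.0807), in STR/ort over C57BL/6 injured joints (0.0562) and in C57BL/6 over MRL/MpJ uninjured joints (0.0559), and Adamts8 at 1-week after injury in STR/ort (0.0663) and in C57BL/6 over MRL/MpJ uninjured joints (0.149). Settings also added calls between strains, in the order STR/ort, C57BL/6, MRL/MpJ unless stated: at 0-day of Adamts5 and Adamts9 (housekeeping scaling), Adamts8 and Adamts17 (RUVg) and Adamts16 (housekeeping scaling, DESeq2 and 1 fit); in injured joints of Adamts5, Adamts12 and Adamts16 (RUVg) and, lower in STR/ort than in MRL/MpJ, Adamts8 at 1-day (housekeeping scaling and 1 fit); and in uninjured joints of Adamts1, Adamts7 and Adamts8 (RUVg) and, at 2-weeks, Adamts4, Adamts5, Adamts7 and Adamts12 (housekeeping scaling). Scaling to housekeeping genes moved the median log2 fold change of all genes by over 0.1 in 8 of 48 comparisons, by -0.18 to 0.15. The causes were not tested. The members with the fewest counts over all libraries were Adamts17 (3170), Adamts16 (3886) and Adamts8 (4260).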
